A study of Mus musculus with 1049 samples.

Results

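The genes described here are 8 genes of the YAP and TEAD pathway: the targets Ccn1, Ccn2, Amotl1, Amotl2 and Ankrd1, the coactivator Yap1, the transcription factor Tead1 and the kinase Lats2. They were chosen by name from 51777 annotated genes and all 8 are in the count tables. Levels were read in single dermal fibroblasts of C57Bl/6 mice at 3 ages: newborn (1.5 or 2.5 days), young (2 months) and old (18 months). The labels name no transgene, treatment or mouse; they give each cell an age and an experiment, 1 or 2, and how many animals stand behind an age is not given in the sources used here. Cells were freed by collagenase after the subdermis had been scraped off, sorted into wells after staining for CD34, Pdgfra and the lineage markers CD45, CD117, EpCam and CD31, and sequenced with Smart-seq2, which copies polyadenylated RNA along its full length without molecular identifiers.

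YAP is a coactivator that shuttles between cytoplasm and nucleus. The Hippo kinases, of which LATS2 is the last, phosphorylate it and keep it out of the nucleus; a spread cell on a stiff matrix with tense actin fibres tends to let it in. In the nucleus YAP binds TEAD factors, which recognise the bases GGAATG, and turns on a set of target genes. These include the secreted matrix proteins CCN1 (also called CYR61) and CCN2 (CTGF), the angiomotin family members, which in turn bind YAP outside the nucleus, and LATS2 itself, so that part of the set feeds back. In skin fibroblasts CCN1 and CCN2 are known as secreted regulators of collagen production and wound repair.

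The TEAD bases can be seen in the promoters of several members. RefSeq promoter windows (GRCm38.p6, 250 bases before to 50 after the start of a gene) were at hand for 6 of the 8 genes, in 7 windows, and for Ccn2 and Tead1 none was at hand. GGAATG, searched on both strands, stood in a window of 5 of these 6 genes (Ccn1, Amotl2, Yap1, Lats2 and Ankrd1), and in 14.7% of all 32851 windows. Ccn1, the most abundant member, is shown with the 250 bases before its RefSeq start, and the other 4 with 30 bases around the first match. Capitals mark GGAATG or its reverse complement CATTCC, and each sequence runs 5′ to 3′ on the strand of its gene. The Ccn1 stretch is chr3:145649986-145650235 on the minus strand, the Amotl2 site is chr9:102717727-102717756 on the plus strand, and the sites of Yap1, Lats2 and Ankrd1 lie at chr9:8004720-8004749, chr14:57746102-57746131 and chr19:36120037-36120066, all on the minus strand.
Ccn1: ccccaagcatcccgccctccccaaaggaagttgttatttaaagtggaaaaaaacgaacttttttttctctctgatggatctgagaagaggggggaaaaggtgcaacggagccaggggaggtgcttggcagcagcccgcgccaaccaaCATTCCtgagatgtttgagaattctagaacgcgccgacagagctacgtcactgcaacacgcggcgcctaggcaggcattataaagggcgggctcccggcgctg
Amotl2: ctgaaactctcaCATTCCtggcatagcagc
Yap1: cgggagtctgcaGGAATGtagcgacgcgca
Lats2: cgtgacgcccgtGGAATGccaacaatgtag
Ankrd1: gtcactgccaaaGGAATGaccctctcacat

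Counted from the RefSeq start, the match lay 103 to 98 bases before that of Ccn1, 65 to 60 before that of Amotl2 and 141 to 136 before that of Yap1; in Lats2 it lay 5 to 10 bases into the transcript of 1 of its 2 windows. Ankrd1 had 2 matches, the shown one 210 to 205 bases before its RefSeq start. The RefSeq start is that of the GENCODE gene in Yap1 and 4 bases before it in Ccn1, but lies inside the GENCODE span given below in the others, 1132 bases in for Amotl2, 255 for Ankrd1, 30056 for Amotl1 and 12265 and 23970 for the windows of Lats2, so the shown sites of Amotl2, Ankrd1 and Lats2 are within those spans. The AP-1 bases TGANTCA were in none of the members' windows (7.81% of all windows), TGACG in those of 3 genes, Ccn1, Amotl1 and Lats2 (20.8% of all), and the CArG box, the element bound by SRF, in none (1.63% of all). A match describes the letters of a window and not a factor bound there.

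After filters on cells, 735 of 861 wells on 9 plates were kept, 249 newborn, 246 young and 240 old, and each plate held all 3 ages. The reads of all kept cells of an age in an experiment were added, and the 6 sums so made held between 119682449 and 195324769 reads. Each age thus had 2 sums, and p-values measure only the spread between these 2 experiments. Levels of the sums are in CPM, the counts over the library total scaled by TMM factors. Those of single cells are in CPM without TMM scaling. Levels of different genes are compared only per kilobase of exon. Of the fibroblast markers, Col1a1, Col1a2, Col3a1, Dcn and Lum were read in 96.5 to 99.9% of cells, and Thy1, Fbln1 and Pdgfra in 65.3, 49.4 and 32.9%. Of the markers of other cell types, Ptprc, Cd3e, Cdh5, Emcn, Rgs5, Myod1, Myh3 and Sox10 had 0 reads in all cells. Others were read more widely, Krt10, Pdgfrb, Plvap and Csf1r in 29.9, 22.6, 20.3 and 7.21% of cells. Thinned to 100000 reads, the median cell had reads of 1799 and 2226 genes in newborn cells, 1648 and 2043 genes in young cells and 1503.5 and 1700.5 genes in old cells of experiments 1 and 2. The sums cannot separate fewer cells with a transcript from less transcript per cell, so shares of cells are given beside the levels.

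Ccn1 was by far the most abundant member at every age, and its level was lower at each older age. The gene (ENSMUSG00000028195) lies at chr3:145646976-145649981 on the minus strand of GRCm38, the build of all positions given here. It had 5506 and 5068 CPM in the newborn sums of experiments 1 and 2, 1268 and 1486 CPM in the young sums and 805 and 839 CPM in the old sums. The 3 ages did not overlap, and both experiments gave the order newborn, young, old. Per kilobase of exon its mean level was 2619 CPM in newborn sums, 682 CPM in young sums and 407 CPM in old sums, which placed it 53rd, 127th and 181st of all 51777 genes.

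Against newborn cells Ccn1 fell in both adult ages. Young sums averaged 1377 ± 154 CPM and newborn sums 5287 ± 309 CPM (SD, n = 2 each), a level 3.84-fold lower in young cells (log2 fold change -1.94 ± 0.18 SE, edgeR quasi-likelihood adjusted p = 0.0243). Old sums averaged 822 ± 24.3 CPM, which was 6.43-fold below newborn (log2 fold change -2.69 ± 0.18, adjusted p = 0.0106). Between old and young cells the level was 1.68-fold lower in old ones, and this did not pass the adjusted threshold of 0.05 (log2 fold change -0.74 ± 0.17, adjusted p = 0.906). With the experiment as a block, the comparison of old with newborn cells kept its call (adjusted p = 0.0407) and that of young with newborn cells lost it (adjusted p = 0.0549). With any 1 of the 6 sums left out the call of young cells was lost (adjusted p 0.0776 to 0.195), and that of old cells was lost without each sum but newborn experiment 2 (0.04997 to 0.140 over the 6).

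Calls in this design were few, which sets the background for each member. Of 16684 genes tested, edgeR called 0.0599% lower in young than in newborn cells, 0.138% lower in old than in newborn cells and 0% lower in old than in young cells. Between old and young cells edgeR called 0 genes in either direction, with 810 genes at an unadjusted p under 0.05, while DESeq2 on the same sums called 1047. DESeq2 called 4.05% of genes lower in old than in young cells, Ccn1 (adjusted p = 2.43e-05) and Amotl2 (adjusted p = 7.99e-08) among them.

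The 9 plates, each with newborn, young and old wells side by side, gave the same order for Ccn1 throughout. Without TMM scaling, its level ran over the plates between 4679 and 7546 CPM in newborn cells (median 6117), between 990 and 1635 CPM in young cells (median 1244) and between 483 and 1351 CPM in old cells (median 823). In 9 of 9 plates the young cells were below the newborn cells, and in 9 of 9 the old cells were below the young cells. Newborn plates stood apart from all adult plates, while the ranges of young and old plates overlapped.

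**Figure D1:**
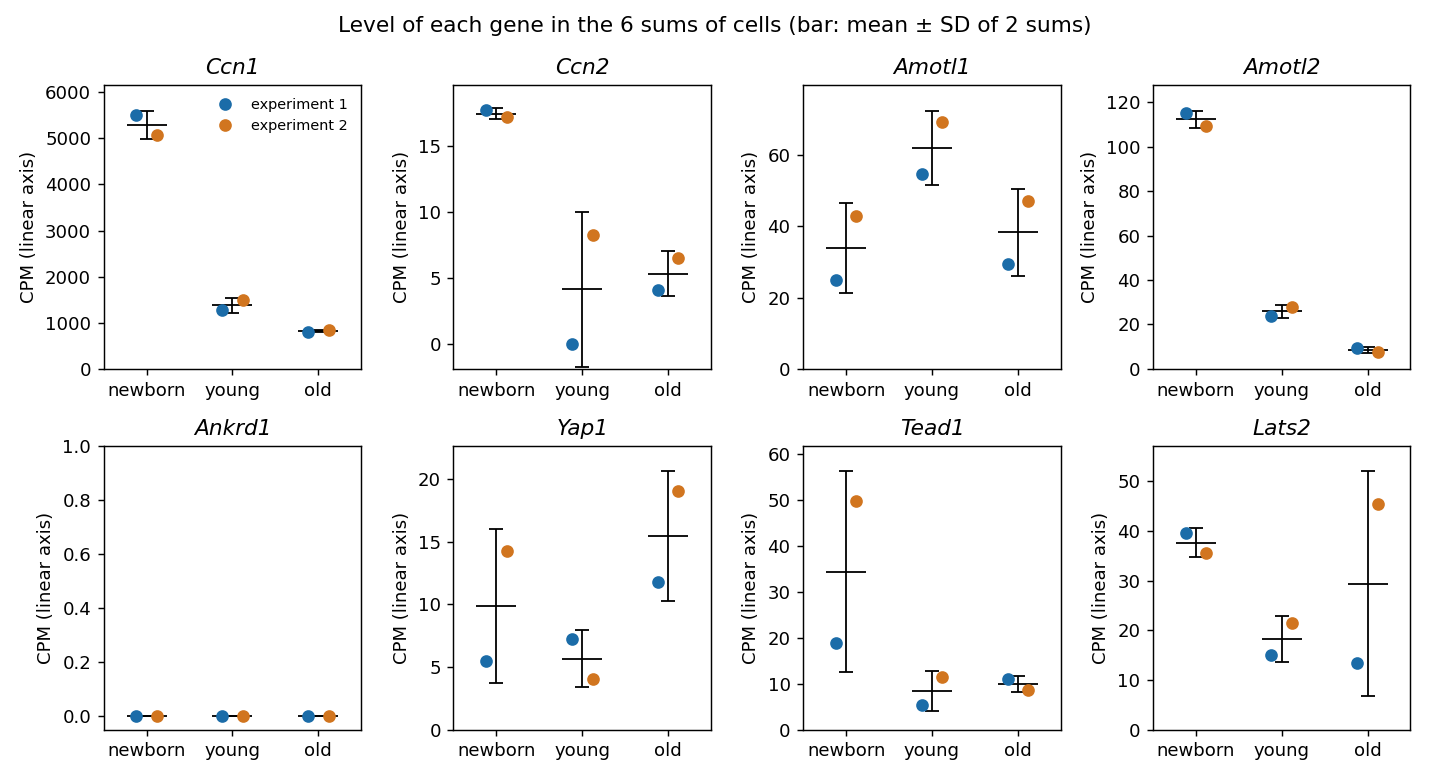
Level of each member in CPM (linear axes, a scale of its own per gene) for newborn, young and old cells; points are the sums of experiments 1 and 2, bars the mean ± SD of 2 sums. Ccn1 (means 5287, 1377 and 822 CPM) and Amotl2 (112, 25.9 and 8.57 CPM) step down at each age without overlap, and Ankrd1 is at 0 throughout.

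In single cells, the share with a Ccn1 read was lowest in old cells of both experiments, and the level in cells with a read was lower in both adult ages than in newborn cells. Each cell was thinned to 100000 reads so that depth did not set the share, and no kept cell had fewer. Ccn1 was then read in 88.0% (exact 95% interval 81.9 to 92.6%) and 95.6% (89.1 to 98.8%) of newborn cells of experiments 1 and 2. The young cells split by experiment, with 59.9% (51.3 to 68.0%) in experiment 1 and 85.6% (77.3 to 91.7%) in experiment 2. The interval of young cells of experiment 2 overlapped those of newborn cells, and that of experiment 1 overlapped those of old cells. Old cells had 53.2% (44.1 to 62.1%) and 53.5% (43.9 to 62.9%). Without thinning the shares were 88.6 and 95.6% in newborn cells, 61.3 and 87.5% in young cells and 56.3 and 57.9% in old cells. The intervals cover the counting of cells only.

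Among cells with a read, the median level of Ccn1 was 5288 and 4720 CPM in newborn cells, 1211 and 1297 CPM in young cells and 1096 and 1044 CPM in old cells. Newborn cells with the transcript thus stood well above adult cells with it, whereas young and old cells with it lay close together. Over all cells, with or without a read, the median was 4866 and 4626 CPM in newborn cells, 555 and 1014 CPM in young cells and 107 and 155 CPM in old cells. High cells occurred at every age. The highest cell held 28720 and 22382 CPM in newborn sums, 17752 and 7450 CPM in young sums and 7474 and 24724 CPM in old sums. The top cell held 5.20 to 14.0% of the Ccn1 reads of a sum. At least 50% of the reads lay in 26 of 158 and 15 of 91 newborn cells, 10 of 142 and 17 of 104 young cells and 10 of 126 and 10 of 114 old cells.

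**Figure D2:**
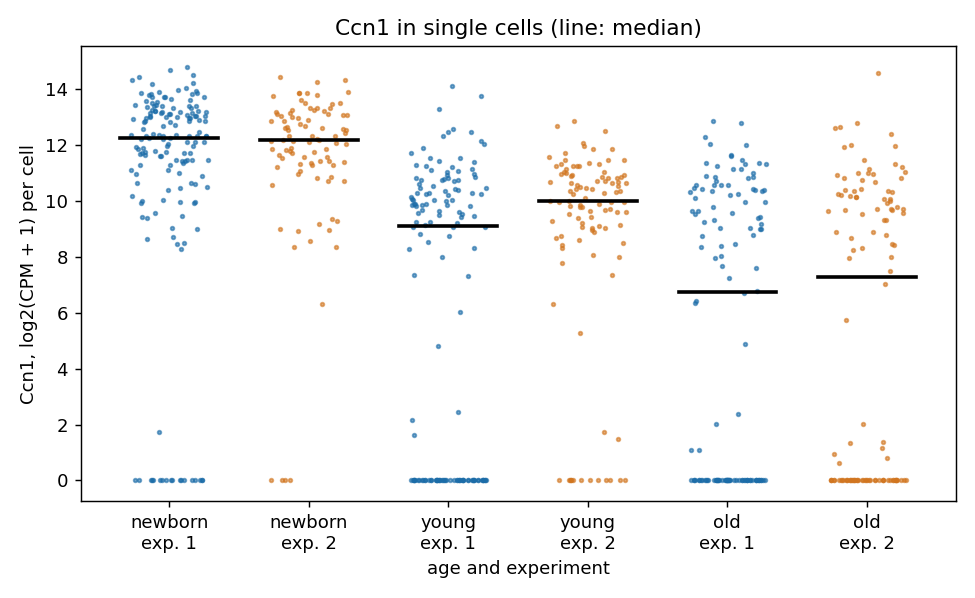
Ccn1 in each kept cell as log2(CPM + 1) without TMM scaling, by age and experiment; points are cells and lines medians. Cells without a read lie at 0, where old cells are most frequent, and the cloud of cells with a read sits highest in newborn cells.

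Amotl2, an angiomotin family protein that binds YAP at cell junctions and is a target of it, followed the same order at a far lower level per kilobase, 17.8 CPM in newborn sums. Its gene (ENSMUSG00000032531) lies at chr9:102716672-102733418 on the plus strand. It had 115 and 109 CPM in newborn sums, 23.7 and 28.04 CPM in young sums and 9.46 and 7.69 CPM in old sums. The ages did not overlap. Old cells were 13.1-fold below newborn cells (log2 fold change -3.71 ± 0.36, adjusted p = 0.0271). Young cells were 4.34-fold below newborn cells (-2.12 ± 0.34, adjusted p = 0.0928) and old cells 3.02-fold below young cells (-1.59 ± 0.33, adjusted p = 0.906), and neither passed the threshold. With the experiment as a block the call between old and newborn cells was lost (adjusted p = 0.0737), as it was without the top cell of each sum (adjusted p = 0.0772) and under a stricter filter on cells (adjusted p = 0.0865). It was also lost with any 1 of the 6 sums left out (adjusted p 0.0900 to 0.172).

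The share of cells with Amotl2 had the same order as its level. After thinning it was read in 21.5% (15.4 to 28.8%) and 33.0% (23.5 to 43.6%) of newborn cells, 8.45% (4.44 to 14.3%) and 8.65% (4.03 to 15.8%) of young cells and 3.97% (1.30 to 9.02%) and 5.26% (1.96 to 11.1%) of old cells. In the old sums much of the level came from a single cell. The top cell held 92.1% of the Amotl2 reads of experiment 1 and 50.8% of those of experiment 2, against 9.08 and 11.7% in newborn sums. By plate, Amotl2 was lower in old than in newborn cells in 9 of 9 plates, lower in young than in newborn cells in 9 of 9, and lower in old than in young cells in 8 of 9. Without TMM scaling, newborn plates ran between 42.8 and 214 CPM (median 122), young plates between 8.16 and 34.8 CPM (median 24.5) and old plates between 0.0460 and 29.4 CPM (median 1.39).

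Amotl1, the close relative of Amotl2 and likewise a YAP binding protein, did not share this order. It had 24.9 and 42.8 CPM in newborn sums, 54.7 and 69.3 CPM in young sums and 29.6 and 47.0 CPM in old sums. Young sums were above newborn sums without overlap, and old sums overlapped newborn sums. No comparison passed (log2 fold change 0.87 ± 0.46, adjusted p = 0.520 for young against newborn cells; -0.70 ± 0.46, adjusted p = 0.925 for old against young cells; 0.18 ± 0.46, adjusted p = 0.944 for old against newborn cells). After thinning, cells with a read made up 4.43 and 13.2% of newborn cells, 9.15 and 18.3% of young cells and 6.35 and 11.4% of old cells, with experiment 2 higher at each age. Over the 9 plates young cells were above newborn cells in 5 and below in 4. In young sums the level per kilobase was 6.16 CPM for Amotl1 and 4.11 CPM for Amotl2, and in newborn sums it was 3.36 CPM for Amotl1 and 17.8 CPM for Amotl2. Amotl1 (ENSMUSG00000013076) lies on the same chromosome at chr9:14541966-14645056 on the minus strand.

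Ccn2, the second secreted target, was rare in these cells. It had 17.7 and 17.2 CPM in newborn sums, 0.00656 and 8.28 CPM in young sums and 4.14 and 6.53 CPM in old sums, the lowest young value being 1 read in 1 cell. Newborn sums lay above all adult sums, and young and old sums overlapped. The fit gave a log2 fold change of -1.71 ± 2.35 for old against newborn cells (adjusted p = 0.854), -2.08 ± 2.38 for young against newborn cells (adjusted p = 0.832) and 0.36 ± 2.29 for old against young cells (adjusted p = 1). Of 735 cells 44 had a Ccn2 read: 28 newborn, 10 young and 6 old cells. In old cells the top cell held 97.1 and 91.1% of all Ccn2 reads. Per kilobase Ccn2 averaged 6.11 CPM in newborn sums, while Ccn1 averaged 2619 CPM. Ccn2 (ENSMUSG00000019997) lies at chr10:24595442-24598683 on the plus strand, and its exons share 665 bases with Gm15270 on the opposite strand, and the strand setting of the counting is not given in the sources used here.

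Ankrd1, a nuclear ankyrin repeat protein gene that is often read as a YAP reporter in cultured cells, had 0 reads in all 735 cells. With none seen, up to 0.408% of cells (3 of 735) could hold a read, by counting error alone. It was not tested. The gene (ENSMUSG00000024803) lies at chr19:36111961-36120099 on the minus strand.

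Yap1, the coactivator, was read in few cells at every age. It had 5.52 and 14.3 CPM in newborn sums, 7.28 and 4.07 CPM in young sums and 11.8 and 19.1 CPM in old sums. Old sums lay above young sums without overlap, and newborn sums overlapped both. No comparison passed (log2 fold change 1.44 ± 0.96, adjusted p = 0.925 for old against young cells; -0.80 ± 0.94, adjusted p = 0.837 for young against newborn cells; 0.64 ± 0.94, adjusted p = 0.867 for old against newborn cells). In the comparison of young with newborn cells the experiments differed in sign, with log2 ratios of 0.40 in experiment 1 and -1.81 in experiment 2. Between 2.82 and 7.89% of the cells of a sum had a Yap1 read after thinning, and 10 newborn, 8 young and 15 old cells held a read in all. Yap1 (ENSMUSG00000053110), at chr9:7931999-8004596 on the minus strand, shares 116 exon bases with Gm20416 on the opposite strand.

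Tead1, one of the DNA-binding partners of YAP, was highest in newborn cells. It had 18.9 and 49.8 CPM in newborn sums, 5.31 and 11.4 CPM in young sums and 11.1 and 8.67 CPM in old sums. Each adult sum was below both newborn sums, which themselves lay far apart. Tead1 was lower in young than in newborn cells in 9 of 9 plates and lower in old than in newborn cells in 9 of 9. The differences did not pass in the sums (log2 fold change -2.04 ± 0.80, adjusted p = 0.379 for young against newborn cells; -1.80 ± 0.80, adjusted p = 0.382 for old against newborn cells; 0.24 ± 0.77, adjusted p = 1 for old against young cells). After thinning, 10.1 and 15.4% of newborn cells, 4.23 and 4.81% of young cells and 3.97 and 2.63% of old cells had a read. Tead1 (ENSMUSG00000055320) lies at chr7:112679318-112906807 on the plus strand.

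Lats2, the kinase that both restrains YAP and is induced by it, had 39.7 and 35.6 CPM in newborn sums, 14.9 and 21.5 CPM in young sums and 13.4 and 45.3 CPM in old sums. Young sums were below newborn sums, and the old sums fell on either side of both. None of the comparisons passed (log2 fold change -1.05 ± 0.69, adjusted p = 0.612 for young against newborn cells; 0.69 ± 0.69, adjusted p = 1 for old against young cells; -0.36 ± 0.69, adjusted p = 0.913 for old against newborn cells). The high old sum of experiment 2 came from 4 cells, of which 1 held 66.8% of the reads. Shares of cells after thinning were 8.86 and 12.1% in newborn cells, 4.23 and 8.65% in young cells and 3.97 and 3.51% in old cells. Lats2 (ENSMUSG00000021959), at chr14:57689662-57758388 on the minus strand, shares 2955 exon bases with Gm49361 on the same strand, so its counts depend on how shared reads were assigned, which is not given in the sources used here.

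**Figure D3:**
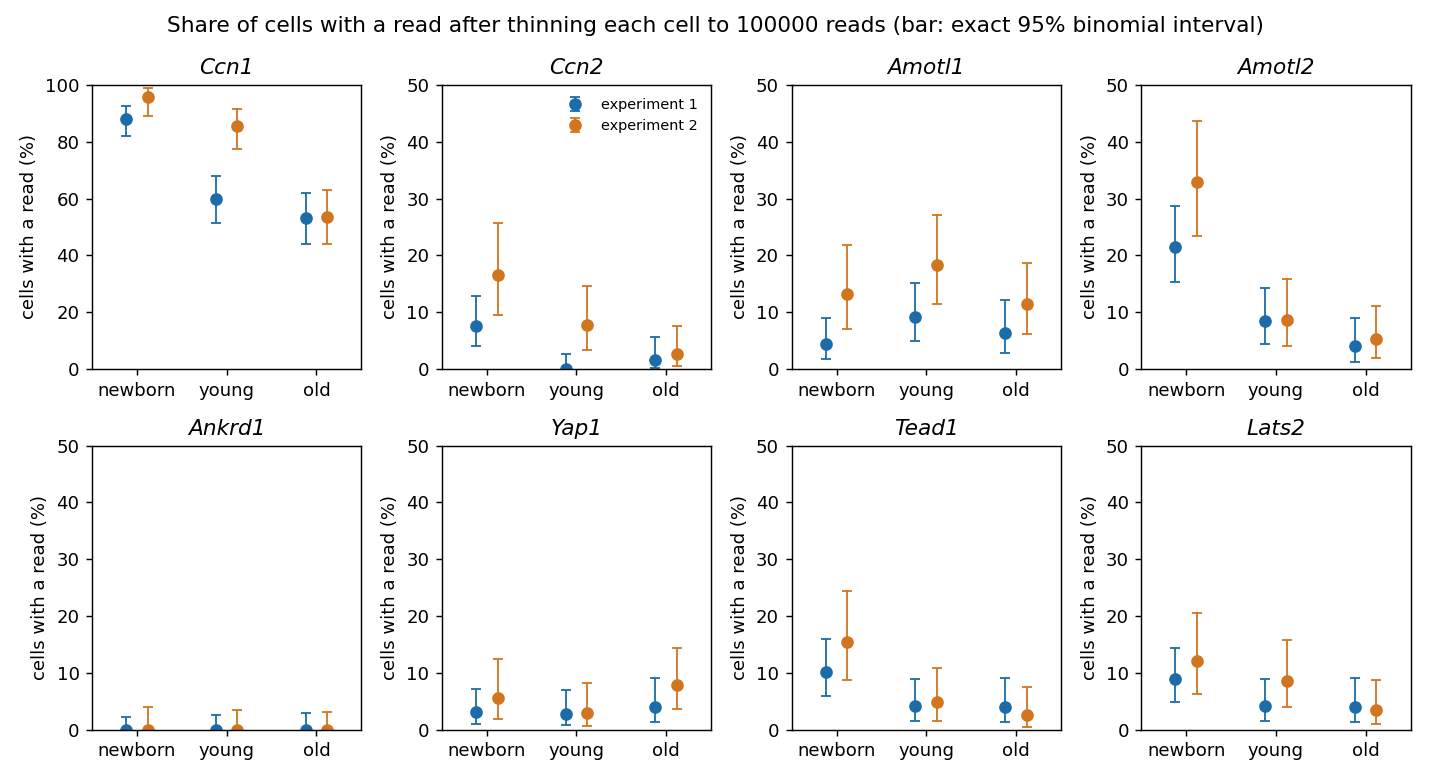
Share of cells with a read of each member after thinning each cell to 100000 reads, in percent (0 to 100% for Ccn1, 0 to 50% for the others); points are experiments 1 and 2 and bars exact 95% binomial intervals. Ccn1 and Amotl2 have their highest shares in newborn cells, while all intervals of Yap1 overlap.

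Side by side, 4 of the 7 members with reads (Ccn1, Ccn2, Amotl2 and Tead1) had both old sums below both newborn sums, against 25.7% of all genes tested. Those 4 and Lats2 had both young sums below both newborn sums, against 25.1% of genes. Ccn1, Amotl1 and Amotl2 had both old sums below both young sums, against 15.9%. The comparisons share their newborn, young or old sums and are not independent of each other. Since sums weight a cell by its reads, limma was also run on the mean of log2(CPM + 1) over cells, which weights cells equally. It used CPM without TMM scaling, for the 6970 genes with a read in 10% or more of the cells of an age. It called Ccn1, Amotl2 and Tead1 lower in young than in newborn cells, as it did 12.8% of genes. In old against newborn cells it called Ccn1, Amotl2, Ccn2, Tead1 and Lats2 lower, as it did 20.5% of genes. A gene could meet the filter through a single age, which favours calls with that age higher, here and in the lists below. Ccn2, Tead1 and Lats2 met it through newborn cells alone (28, 32 and 32 of 249 with a read), and Yap1 did not meet it. Adjusted p for old against newborn cells was 2.95e-04 for Ccn1, 0.00129 for Amotl2, 0.0240 for Ccn2, 0.0210 for Tead1 and 0.0277 for Lats2. These calls stand beside the lower number of genes per adult cell given above, whose part in them was not tested.

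With all reads of a cell, unthinned, 2 or more members were read in a higher share of newborn than of adult cells. Of 249 newborn cells 133 (53.4%) had reads of 2 or more members, as had 76 of 246 young cells (30.9%) and 50 of 240 old cells (20.8%). No member at all was read in 13 newborn (5.22%), 45 young (18.3%) and 78 old cells (32.5%). Ccn1 accounted for most cells with a member read, with 542 of 735 cells, and was read in 91.2% of newborn, 72.4% of young and 57.1% of old cells. What the shares of single members, or the higher number of genes per newborn cell, give alone for 2 or more members was not tested. The counts are therefore no measure of members varying together.

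Across single cells of a sum, the members hardly varied together. Of the other members, Amotl2 had the highest mean Pearson correlation with Ccn1 on log2(CPM + 1), 0.0804 over the 6 sums (0.0324 to 0.158). Those with Amotl1, Lats2, Tead1, Ccn2 and Yap1 averaged 0.0552, 0.0302, 0.0295, 0.0257 and 0.00651, and each of these took both signs over the sums. The cells of a sum, 91 to 158 in number, share their plates, age and depth range, and in counts this sparse a weak correlation is no finding. Counted as cells, 71 of the 75 newborn cells with Amotl2 also had Ccn1 (94.7%), where 91.2% of all newborn cells had Ccn1. In young cells it was 26 of 33 (78.8%) against 72.4% of all, and in old cells 14 of 21 (66.7%) against 57.1% of all. Yap1 and Tead1 were read together in 2 cells of 33 and 54, and Yap1 with Lats2 in 1 cell.

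The genes that varied most with Ccn1 from cell to cell included immediate early response genes. Among 3553 other genes with a read in 10% or more of the cells of each sum, the 5 with the highest mean correlation over the 6 sums were Fos (0.41) and Egr1 (0.38), both transcription factors, Nfkbia (0.37), an NF-kappaB inhibitor, Dusp1 (0.35), a MAP kinase phosphatase, and Zfp36 (0.33), an mRNA decay factor. The median over all 3553 genes was 0.0117 and 95% of them lay below 0.0981. With Fos the correlation was 0.61 and 0.65 in newborn cells, 0.31 and 0.25 in young cells and 0.47 and 0.19 in old cells. With Egr1 it was 0.55 and 0.61, 0.34 and 0.23, and 0.42 and 0.15 in the same order. Both were highest in newborn cells. Cells without a read were part of these correlations, and most newborn cells without a Ccn1 read also had no Fos read. Cells with reads of both genes were not correlated apart. Of the list of 18 immediate early genes, 17 could be compared, and 12 of these ranked among the first 50 genes, the others of which are not on the list. The list also holds the heat shock genes Hspa1a and Hspa1b, which are counted in the 12 (ranks 37 and 47). Ccn1 is itself known as an immediate early gene of growth factor stimulation. The correlation of Ccn1 with the number of genes in a cell ran between -0.0449 and 0.249 over the sums.

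**Figure D4:**
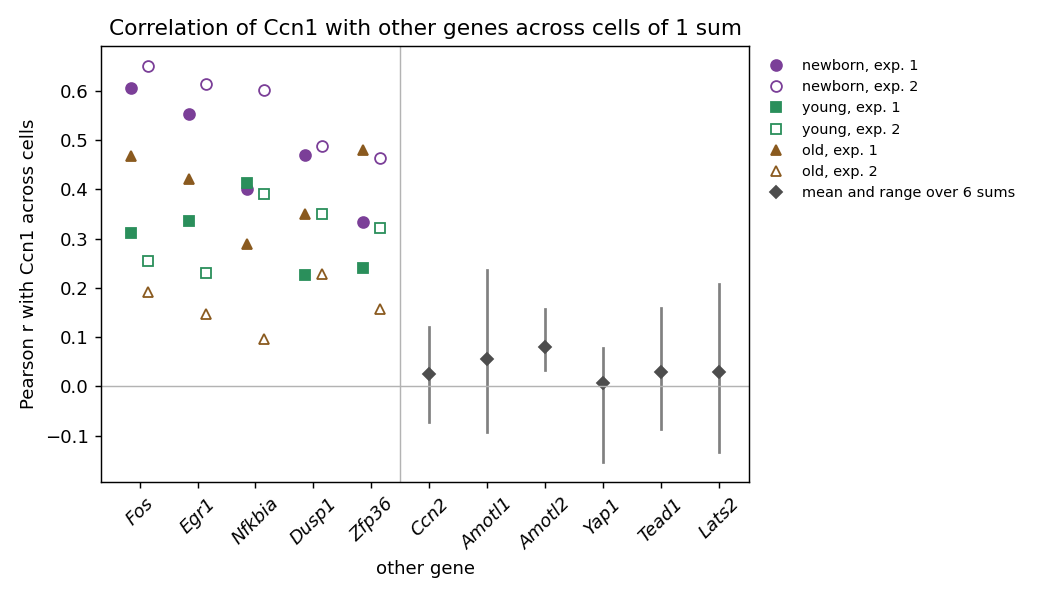
Pearson correlation of Ccn1 with another gene across the cells of 1 sum, on log2(CPM + 1); left, the 5 genes of highest mean with 1 point per sum, right, other members with the mean (diamond) and range over 6 sums. Fos and Egr1 lie above 0.5 in both newborn sums, and the means with other members lie between 0.00651 and 0.0804.

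From age to age, the immediate early genes that passed in edgeR were higher in adult cells, where Ccn1 was lower, while Klf6 of the same list had lower values there. Fosb, a partner of JUN proteins, had 35.8 ± 0.370 CPM in newborn sums, 252 ± 68.2 CPM in young sums and 269 ± 33.8 CPM in old sums, and rose in young and in old against newborn cells (adjusted p = 0.0372 and 0.0297). Klf4, a zinc finger transcription factor, had 37.1 ± 6.58, 268 ± 23.7 and 303 ± 49.0 CPM at these ages, and rose likewise (adjusted p = 0.0279 and 0.0223). These were the 2 genes of the list that passed in edgeR, of 18 tested, while 0.719% of all genes were called higher in young and 0.797% in old than in newborn cells. Neither kept its calls with the experiment as a block (adjusted p = 0.0732 and 0.0847 for Fosb and Klf4 in young, 0.0647 and 0.0679 in old against newborn cells), or with any 1 sum left out (0.0793 to 0.175 over both genes and ages). Fos had 2481 ± 95.4, 6425 ± 1710 and 5356 ± 835 CPM at the 3 ages, which did not pass in edgeR (log2 fold change 1.37 ± 0.25, adjusted p = 0.124 for young and 1.11 ± 0.25, adjusted p = 0.161 for old against newborn cells). Egr1 had 1601 ± 173, 2755 ± 766 and 2931 ± 313 CPM (adjusted p = 0.284 and 0.224), Dusp1 2647 ± 606, 5123 ± 107 and 3670 ± 494 CPM (0.198 and 0.414), and Ier2, a growth factor response gene, 934 ± 191, 1103 ± 102 and 1188 ± 17.8 CPM (0.752 and 0.539). Klf6, a zinc finger transcription factor named here after its values were seen, had 994 ± 171, 358 ± 44.97 and 433 ± 68.5 CPM, the direction of Ccn1 (log2 fold change -1.47 ± 0.25, adjusted p = 0.104 for young and -1.20 ± 0.24, adjusted p = 0.137 for old against newborn cells). Limma called Klf6 lower in both (adjusted p = 0.00280 and 0.00743). Over the list DESeq2 called 10 of 18 genes in young and 10 in old against newborn cells (14.7% and 17.6% of all genes, in either direction). In each, 9 were higher, Fos and Egr1 among them, and Klf6 was lower. Limma called 6 and 5 of 18, of which 5 and 4 were higher (19.3% and 26.1% of all). Fos was among its calls in young cells only. The list's median log2 fold change, the heat shock genes Hspa1a and Hspa1b included, was 0.86 for young and 0.98 for old against newborn cells, beside -0.07 and -0.08 over all genes tested. Within a sum, cells without a read included, cells with more Fos thus tended to have more Ccn1, while the newborn sums had the lowest Fos and the highest Ccn1 of the ages.

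The wider set of YAP targets pointed both ways. Of a list of 22 YAP signature genes that includes Ccn1, Ccn2, Ankrd1, Amotl2 and Lats2, 19 had enough reads to be tested. In edgeR Ccn1 passed in young against newborn cells, and Ccn1 and Amotl2 in old against newborn cells, all lower, and 0 other genes of the list passed in any comparison. Ccn1 and Amotl2 included, 5 genes in young and 7 in old against newborn cells and 4 in old against young cells had an unadjusted p under 0.05. Over all 16684 genes tested, 2214, 2537 and 810 had one in this order. DESeq2 called 5, 8 and 4 genes of the 19 in these comparisons (14.7%, 17.6% and 6.53% of all genes), and limma 5, 6 and 0 of 11 (19.3%, 26.1% and 0.115% of all). The median log2 fold change was -0.60 for young and -0.69 for old against newborn cells, and 0.02 for old against young cells, where all genes had a median of 0. Ccdc80, a secreted matrix protein gene and the most abundant of the other targets, had 649 and 466 CPM in newborn sums, 529 and 582 CPM in young sums and 368 and 297 CPM in old sums (adjusted p = 1 for young and 0.264 for old against newborn). Axl, a receptor tyrosine kinase gene, had 87.7 and 88.4 CPM in newborn sums, 279 and 337 CPM in young sums and 239 and 386 CPM in old sums; the adult sums were all higher, short of the threshold (adjusted p = 0.109 and 0.0965). Nt5e, which encodes the ecto-nucleotidase CD73, had 298 and 255 CPM in newborn sums, 83.2 and 116 CPM in young sums and 130 and 129 CPM in old sums, the adult sums all lower (adjusted p = 0.118 and 0.179). Tgfb2, which encodes a TGF-beta ligand and is named here after its values were seen, had 8.63 and 13.0 CPM in newborn sums, 75.2 and 163 CPM in young sums and 109 and 173 CPM in old sums. All adult sums were above the newborn sums (log2 fold change 3.46 ± 0.55, adjusted p = 0.0965 for young and 3.71 ± 0.56, adjusted p = 0.0761 for old against newborn cells), and DESeq2 called both (2.37e-08 and 1.67e-09), as did limma (0.0122 and 0.0146). Tgfb2 met the filter of limma through adult cells alone (68 of 246 young and 64 of 240 old cells with a read, 5 of 249 newborn cells).

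Among coactivators and TEAD partners, 0 of the 7 genes tested passed in edgeR in any comparison. An unadjusted p under 0.05 was reached by 0 in young and 2 in old against newborn cells and 1 in old against young cells. Over all 16684 genes tested, 2214, 2537 and 810 reached it in this order. DESeq2 called 0, 2 and 1 of the 7 (14.7%, 17.6% and 6.53% of all genes, in either direction). Limma called 3, 4 and 0 of 5 (19.3%, 26.1% and 0.115% of all). All these calls of the list were lower. Wwtr1, which encodes the YAP relative TAZ, was read in more cells than Yap1 (118 and 33 of 735). It had 98.4 ± 25.1 CPM in newborn sums, 65.3 ± 29.1 CPM in young sums and 47.7 ± 14.4 CPM in old sums (adjusted p = 0.693 for young and 0.390 for old against newborn). Per kilobase it averaged 14.7 CPM over the 6 sums, Yap1 1.12 CPM and Tead1 1.29 CPM. Vgll3, a cofactor that competes for TEAD, had 88.2 ± 1.11, 48.8 ± 11.4 and 45.9 ± 10.7 CPM at the 3 ages from newborn on (adjusted p = 0.395 and 0.298). Vgll4, another TEAD cofactor, had 22.1 ± 5.41, 11.7 ± 12.5 and 19.5 ± 1.92 CPM (adjusted p = 0.822 and 0.980). Tead2, a TEAD factor named here after its values were seen, had 14.3 and 32.2 CPM in newborn sums, 6.15 and 3.68 CPM in young sums and 0.068 and 0.011 CPM in old sums, the last being 10 reads and 2 reads in 1 cell each. The ages did not overlap, and edgeR gave an adjusted p of 0.530 for young and 0.109 for old against newborn cells, where DESeq2 gave 0.139 and 2.73e-15 and limma 0.0159 and 0.00327. Tead2 met the filter of limma through newborn cells alone (37 of 249 with a read, 11 of 246 young and 2 of 240 old cells), as did Tead1. All 7 fold changes of young against newborn cells were below 0 (median log2 -0.91), and 6 of 7 of old against newborn cells were (median -1.04). Over all 16684 genes tested, 8667 and 8746 were below 0.

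Of the 13 genes of the Hippo kinase arm, Lats2 included, 0 passed in edgeR in any comparison, with median log2 fold changes of -0.23 for young and -0.44 for old against newborn cells. An unadjusted p under 0.05 was reached by 0 of them in young and 1 in old against newborn cells and by 0 in old against young cells. Over all 16684 genes tested, 2214, 2537 and 810 reached it in this order. DESeq2 called 1, 3 and 0 of the 13 (14.7%, 17.6% and 6.53% of all genes, in either direction). Limma called 2, 2 and 0 of 8 (19.3%, 26.1% and 0.115% of all), Lats2 among them in old against newborn cells. Values of the most abundant follow for newborn, young and old sums. Frmd6, an upstream scaffold, had 121 ± 40.1, 124 ± 45.1 and 73.0 ± 34.3 CPM. Taok1, a kinase upstream of the Hippo kinases, had 45.4 ± 7.28, 71.8 ± 30.6 and 122 ± 49.3 CPM, and Stk3, one of the Hippo kinases, 75.95 ± 4.47, 56.1 ± 20.8 and 56.1 ± 48.7 CPM. Mob1a, a LATS activator, had 77.75 ± 27.8, 51.7 ± 18.9 and 40.9 ± 3.80 CPM.

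In the CCN family Ccn1 passed in edgeR, 4 others were tested without passing, and Ccn6 had 0 reads. DESeq2 called 2 of the 5 in young against newborn cells, Ccn1 lower and Ccn5 higher. In old against newborn cells it called 3, Ccn1 and Ccn4 lower and Ccn5 higher (14.7% and 17.6% of all genes, in either direction). In old against young cells it called 2, Ccn1 and Ccn4, both lower (6.53% of all). Limma called 2 in young, Ccn1 lower and Ccn5 higher, and 3 in old against newborn cells, Ccn1, Ccn2 and Ccn4, all lower (19.3% and 26.1% of all). It called 0 in old against young cells (0.115% of all). Ccn2 and Ccn4 met its filter through newborn cells alone and Ccn5 through young cells alone. Ccn4, a WNT-induced secreted protein gene, came nearest, with 128 ± 89.3 CPM in newborn sums, 40.0 ± 1.83 CPM in young sums and 8.75 ± 3.26 CPM in old sums (adjusted p = 0.347 for young and 0.104 for old against newborn). Ccn5 pointed the other way, with 15.1 ± 0.505, 80.2 ± 8.49 and 66.0 ± 57.4 CPM (adjusted p = 0.258 and 0.262). Ccn3 had 32.0 and 36.7 CPM in newborn sums, 60.2 and 99.9 CPM in young sums and 13.5 and 47.2 CPM in old sums. Per kilobase Ccn1 was the most abundant of the family at each age. Amot, the founding angiomotin, had 4.75 ± 1.65, 6.18 ± 3.82 and 6.82 ± 7.03 CPM in the same order.

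On a list of actin genes and targets of SRF, the actin-responsive factor, 1 of 13 genes tested passed in edgeR. DESeq2 called 4 in young and 7 in old against newborn cells and 1 in old against young cells (14.7%, 17.6% and 6.53% of all genes, in either direction). Limma called 5, 6 and 0 of 11 (19.3%, 26.1% and 0.115% of all). All these calls of the list were lower. Of the genes limma called, Cnn2, Tagln, Tpm2 and Srf met its filter through newborn cells alone (77, 49, 103 and 31 of 249 with a read), which favours lower calls in adult cells. Myl9, the regulatory light chain of myosin, had 284 ± 89.4 CPM in newborn sums, 45.4 ± 0.131 CPM in young sums and 34.0 ± 1.96 CPM in old sums. It fell in young against newborn cells (log2 fold change -2.64 ± 0.31, adjusted p = 0.0468) and in old against newborn cells (-3.06 ± 0.32, adjusted p = 0.0326), and both calls were lost with the experiment as a block (adjusted p = 0.115 and 0.0891) and with any 1 sum left out (0.0607 to 0.283). Fold changes were below 0 for 12 of 13 genes in young and 13 of 13 in old against newborn cells, with medians of -1.54 and -2.39. Over all 16684 genes tested, 8667 and 8746 were below 0, with medians of -0.07 and -0.08. Actb, which encodes beta actin and was read in 735 of 735 cells, had 4656 ± 98.2, 3247 ± 775 and 2827 ± 53.0 CPM at the 3 ages (adjusted p = 0.395 for young and 0.224 for old against newborn). Actg1, Tpm1 and Flna did not pass in edgeR either. DESeq2 called Flna lower in young and Actb lower in old cells, and limma called Flna lower in old cells, each against newborn cells.

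**Figure D5:**
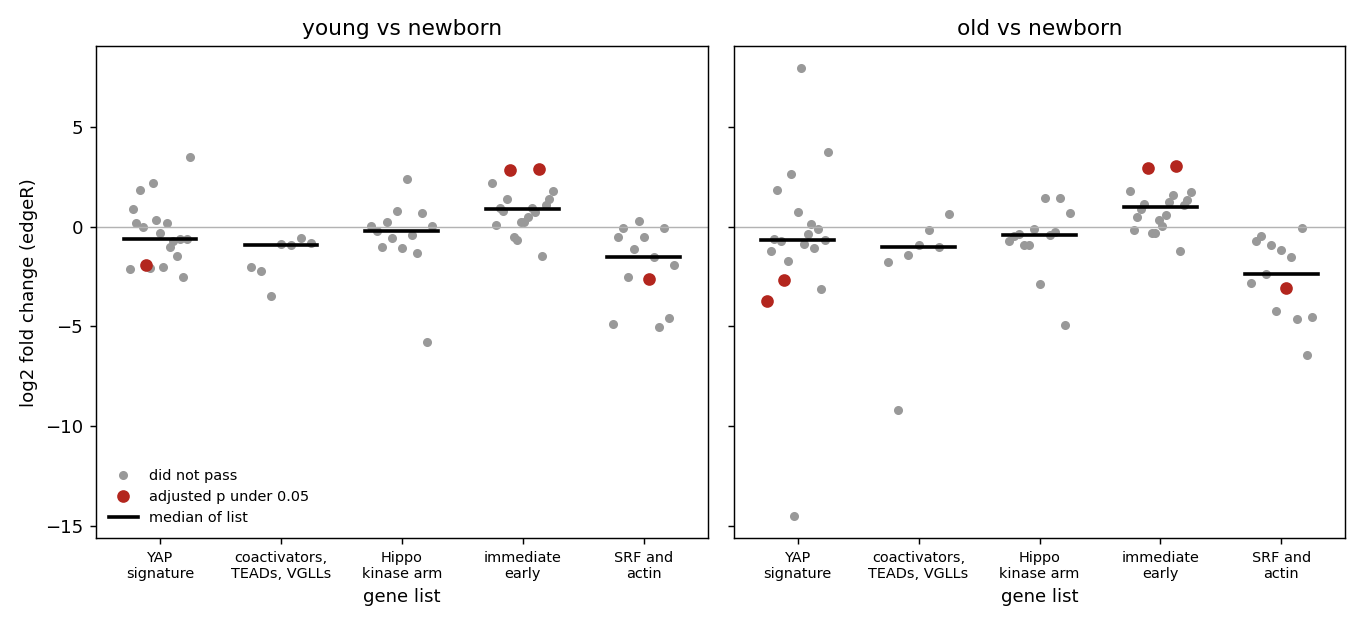
Log2 fold changes from edgeR of the tested genes of 5 lists, for young and for old against newborn cells; each point is a gene, red points passed an adjusted p under 0.05, and black lines are list medians. Genes of the immediate early list, which holds the heat shock genes Hspa1a and Hspa1b, lie mostly above 0 and actin and SRF genes mostly below. Points far from the rest are genes with few or no reads in 1 age.

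Markers of other cell types were low in level but not equal between ages, and some were read in many cells, Krt10 in 29.9% and Plvap in 20.3% of all. Summed over the list, the 7 immune markers had 0.716 to 2.10 CPM in newborn sums, 52.9 to 186 CPM in young sums and 23.1 to 39.5 CPM in old sums, with Ptprc and Cd3e at 0. The 6 endothelial markers had 15.1 to 23.5, 75.7 to 90.7 and 67.6 to 83.6 CPM, with Cdh5 and Emcn at 0. The 7 mural markers had 46.0 to 137, 41.6 to 99.2 and 90.5 to 95.5 CPM, with Rgs5 at 0, and the 5 keratinocyte markers 18.9 to 33.7, 43.6 to 47.3 and 57.1 to 70.9 CPM. The muscle cell list reached at most 17.7 CPM in any sum. Without the 6 kept cells that held a read of Ptprc, Kit, Epcam or Pecam1, the fold changes of Ccn1 and Amotl2 kept their calls in old against newborn cells. Whether the other markers bear on the members' values was not tested.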

How the data were processed

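Single dermal fibroblasts were profiled with Smart-seq2. The authors deposited raw counts of reads in plate tables with a row for each gene and a column for each well. GRCm38 and FastQC are named in the submitters' processing notes; the sources used here do not give aligner, counter or strand setting. Of 1049 labelled columns, 5 were empty. Pairs of tables with r of at least 0.994 between wells (others at most 0.430) were added as 2 runs of 1 plate. Of nonzero counts, 74.9% were even; whether both mates of a fragment were counted is not given, so intervals and floors cover counting error only. Cells with 50000 reads, 1000 genes and at most 25% mitochondrial reads were kept, 246349 to 4331293 reads each. IDs were matched without version to GENCODE M21, which gave symbols, positions and exon lengths (51633 of 51777).

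Reads were summed per age and experiment and tested with edgeR 4.0.16 (TMM, filterByExpr, robust quasi-likelihood fit, age only, 16684 genes, Benjamini-Hochberg threshold 0.05, common biological coefficient of variation 1.13, 3 residual degrees of freedom). SE is the log2 fold change over the root of F. Alternatives used DESeq2 1.42.0, limma 3.58.1 and others given in the closing section. The labels give an experiment number and do not call it a batch. It was treated here as a batch shared by the ages, which pairs the sums by number. Deviations from age means correlated at 0.0266 (young and newborn), 0.0387 (old and young) and 0.0192 (old and newborn). Cells were thinned without replacement with seed 20; intervals are Clopper-Pearson. The 8 members were named in each comparison; of the other lists the genes past the threshold and up to 4 of highest mean CPM were named, with values for others in ranges, and for a member read in 10% of the cells of each sum (Ccn1) the 5 genes of highest mean correlation. Members and lists were chosen with earlier results of these data known.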

Additional observations from a re-analysis of the deposited data

How the results depend on the processing

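Ccn1 stayed lower in old than in newborn cells under all 11 alternative settings that kept the 6 sums, with its call in each (adjusted p 7.76e-68 to 0.0407), and lower in young than in newborn cells with its call in 10 of 11 (not with the replicate block, 0.0549). Amotl2 kept the call between old and newborn cells in 8 of 11 (adjusted p 7.27e-44 to 0.0865), and between young and newborn cells 3 settings added one (DESeq2, genes read in 10% of cells, limma). With 1 sum left out, the fit assumes that the lone sum of an age varies like the others. Ccn1 then kept 1 of 6 calls between old and newborn cells, that without newborn replicate 2 (adjusted p 0.04997 to 0.140), and 0 of 6 between young and newborn cells (0.0776 to 0.195); Amotl2 kept 0 of 6 (0.0900 to 0.172). Both genes stayed lower in the older age in all 17 settings and all comparisons. The cause of lost calls was not tested.

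Genes called numbered 130 for young against newborn cells, 0 for old against young and 156 for old against newborn. They were 25, 0 and 51 with the experiment as a replicate block, 2358, 1047 and 2828 with DESeq2, 492, 9 and 550 over genes read in 10% of cells, 254, 0 and 281 with thinned cells, 1348, 8 and 1822 with limma on mean log values, 246, 0 and 271 without each gene's top cell, and 185, 2 and 208 without a filter. The 4 other settings (DESeq2 size factors, stricter cell filter, no cells with lineage reads, first runs) gave 114 to 132, 0 and 140 to 159. With a sum left out they ranged from 0 to 42 for young and from 0 to 47 for old against newborn cells. The block changed no call of another member; beyond the members it ended those of Fosb, Klf4 and Myl9 against newborn cells (adjusted p 0.0647 to 0.115). Fosb and Klf4 each kept both calls under the 10 other settings with 6 sums, and Myl9 kept 8 of 11 (young) and 10 of 11 (old).

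Small fold changes turned sign. For old against young cells, Ccn2 (0.36) came to -0.94 with thinned cells, -0.13 with limma, -2.99 without the top cells and between -0.63 and 9.51 with a sum left out. Tead1 (0.24) came to -0.052 with limma, -0.070 without the top cells, -0.32 with the stricter filter, -0.0044 with first runs only and between -0.21 and 0.89 with a sum left out. Lats2 (0.69) came to -0.14 with limma, -0.11 without the top cells and between -0.45 and 1.30 with a sum left out. With a sum left out, Amotl1 for old against newborn cells ran from -0.20 to 0.62, Lats2 from -1.49 to 0.28, and Yap1 for young against newborn cells from -1.33 to 0.043. For old against young cells, Fosb came to -0.068 with thinned cells, -0.90 with limma and between -0.16 and 0.40 with a sum left out, and Klf4 to -0.0073 with limma and between -0.016 and 0.33 with a sum left out. All reads in place of thinned ones moved 1 of 48 shares beyond its interval (Amotl2 in old cells of experiment 1, 9.52% with all reads and 3.97% thinned). Spearman on thinned counts kept the 5 genes most like Ccn1 positive (mean 0.222 to 0.347).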
